A study of Mus musculus with 48 samples.

Results

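The genes of calcineurin and its nuclear effectors were followed through early epileptogenesis in the mouse dentate gyrus. They were 9 named rows of the deposited table of 55357 genes, found by matching Ensembl identifiers to mouse symbols, and all 9 were among the 21390 genes with enough reads to test. They encode the catalytic subunits Ppp3ca and Ppp3cb, the regulatory subunit Ppp3r1, the calcineurin-binding regulators Rcan1 and Rcan2, and the transcription factors Nfatc1, Nfatc2, Nfatc3 and Nfatc4. RNA was sequenced from the dorsal dentate gyrus of both sides of 24 C57BL/6J wild-type mice, giving 48 libraries. Each mouse received a unilateral intrahippocampal injection of kainate, an agonist of glutamate receptors that induces status epilepticus, or of saline, and was sampled 3, 7 or 14 days later. The injected side is the epileptogenic zone (EZ) and the opposite side the peri-ictal zone (PIZ), and each of the 12 groups of side, treatment and day held 4 mice, 2 of each sex. The records give an age of 6 to 8 weeks and the methods an older range. Kainate mice entered the study only after an observed behavioural seizure, every group had an injection, and no uninjected mouse was analysed here.

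Calcineurin is the calcium- and calmodulin-dependent protein phosphatase, abundant in forebrain neurons, where it acts at synapses on channels, vesicle proteins and phosphatase inhibitors. Calcium binding to the B subunit and to calmodulin activates the catalytic A subunit, which dephosphorylates cytoplasmic NFAT proteins and lets them enter the nucleus, where they often bind DNA together with AP-1 (Fos and Jun proteins). RCAN proteins bind calcineurin and can inhibit it. The shorter Rcan1 transcript starts at an internal promoter that is a known target of NFAT, and counts per gene as deposited here cannot tell the long and short Rcan1 transcripts apart.

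In saline mice the subunits were the most abundant of the 9 genes and the NFAT genes the least. Per kilobase of exon, Ppp3r1 stood at 339 ± 28 RPKM (read counts scaled by exon length and library size; mean ± SD, n = 24 libraries of 12 mice) and Ppp3ca at 236 ± 27.8 RPKM. Ppp3cb followed at 37.5 ± 3.14 RPKM, Rcan2 at 13.5 ± 1.18 RPKM and Rcan1 at 11.9 ± 1.18 RPKM. The saline ranges of Rcan1 and Rcan2 overlapped, as did those of Nfatc3 (1.09 ± 0.0938 RPKM), Nfatc2 (1.06 ± 0.112 RPKM) and Nfatc1 (0.736 ± 0.146 RPKM). Nfatc4 was lowest at 0.154 ± 0.0422 RPKM and rested on 13 to 115 reads per library over all 48 libraries, so its values are the least precise. Of the saline sides, none of the 9 genes differed between EZ and PIZ in edgeR's quasi-likelihood test, with 0 at an unadjusted p under 0.05 and 0 called by DESeq2, against 0.0234% of all genes called. The saline sides did differ in the astrocyte gene Gfap, which was called higher in the EZ (log2 difference 1.28). The EZ saline mice at day 3, against which the kainate mice of that day were compared, had astrocyte marker sums of 3181 to 5712 CPM and microglia sums of 630 to 1119 CPM, all above those of the EZ saline mice at days 7 and 14 (2001 to 2414 CPM and 482 to 602 CPM).

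Positions are given in the GRCm39 build, which the count table uses. Ppp3ca lies at chr3:136375445-136643491 on the plus strand, Ppp3cb at chr14:20548406-20596668 on the minus strand and Ppp3r1 at chr11:17109192-17150382 on the plus strand. Rcan1 lies at chr16:92188840-92267755 on the minus strand and Rcan2 at chr17:44112216-44350407 on the plus strand. Nfatc2 lies at chr2:168318330-168443693 on the minus strand, and Nfatc3 at chr8:106785472-106857175 and Nfatc4 at chr14:56060601-56071401, both on the plus strand. All members are annotated as protein-coding. Ppp3r1 shares 462 exonic bases with Dnaaf10 on the same strand. The authors' counting settings let a read count for several overlapping genes, so reads in these bases could be counted for both.

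Since NFAT proteins bind the core GGAAA, the 300 bases before each gene's first annotated start were searched for it on both strands, together with the AP-1 motif TGACTCA and the cAMP-response motif TGACGTCA, for all members but Nfatc1. The internal start of Rcan1 was searched as an added window. The 3 windows shown, of Ppp3cb, Nfatc4 and the internal start of Rcan1, were picked for having the most NFAT cores. They read 5′ to 3′ on the gene's own strand, and capitals mark the matches (GGAAA or its reverse complement TTTCC; in Nfatc4 also TGAGTCA, the reverse complement of the AP-1 motif; in Rcan1 also TGACGTCA).
Ppp3cb, GRCm39 chr14:20596669-20596968, minus strand: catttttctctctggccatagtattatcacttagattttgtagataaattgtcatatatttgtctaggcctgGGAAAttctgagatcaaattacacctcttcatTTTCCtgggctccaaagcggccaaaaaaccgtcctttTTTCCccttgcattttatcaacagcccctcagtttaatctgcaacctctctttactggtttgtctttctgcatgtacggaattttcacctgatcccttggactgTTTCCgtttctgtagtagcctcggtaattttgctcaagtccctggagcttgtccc
Nfatc4, GRCm39 chr14:56060301-56060600, plus strand: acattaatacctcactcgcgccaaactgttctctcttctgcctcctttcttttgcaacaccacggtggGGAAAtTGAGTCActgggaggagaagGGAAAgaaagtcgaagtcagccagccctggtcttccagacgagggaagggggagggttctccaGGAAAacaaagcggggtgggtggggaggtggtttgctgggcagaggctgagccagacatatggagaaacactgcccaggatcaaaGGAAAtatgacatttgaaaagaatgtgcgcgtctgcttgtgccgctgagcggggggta
Rcan1 short-transcript start, GRCm39 chr16:92197080-92197379, minus strand: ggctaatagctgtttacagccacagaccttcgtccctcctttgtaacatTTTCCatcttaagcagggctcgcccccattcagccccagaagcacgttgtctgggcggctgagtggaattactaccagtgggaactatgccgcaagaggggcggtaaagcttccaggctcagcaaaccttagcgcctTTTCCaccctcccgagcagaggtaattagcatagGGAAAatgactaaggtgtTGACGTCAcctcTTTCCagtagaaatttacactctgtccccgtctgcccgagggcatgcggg
Each of the 3 windows held 4 NFAT cores and overlapped no annotated exon, and the Rcan1 window lies within the span of the long transcript. Of 21769 windows of the same length before the first annotated starts of protein-coding genes, 65.5% held at least 1 core and 3.5% held 4 or more, while 4.8% held the AP-1 motif and 1.35% the cAMP-response motif. Internal starts such as that of Rcan1 are not in this set. The GC content was 41.7% in the Ppp3cb window, 53.7% in that of Nfatc4 and 53.3% in that of Rcan1, beside a median of 50.7%. The window before the first Rcan1 start and the window of Ppp3ca held 0 cores, those of Ppp3r1 and Nfatc3 held 1, that of Rcan2 held 2 and that of Nfatc2 held 3. A match describes the letters in the window and not a bound site.

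Several libraries stood apart and bear on the results. In the EZ at day 14, kainate mouse 27 had a summed level of 8 pan-neuron markers of 3336 CPM (read counts scaled to a common library size) against 4471 to 5825 CPM in the other 3 kainate mice, and a summed level of 9 microglia markers of 4236 CPM against 604 to 941 CPM. In the PIZ, the saline mice 18 (day 3) and 39 (day 14) had a summed level of 5 granule cell markers of 419 and 382 CPM, against 639 to 814 CPM and 743 to 770 CPM in the other saline mice of their groups. In the PIZ at day 7, kainate mouse 21 had a granule cell sum of 286 CPM against 529 to 567 CPM in the other kainate mice, and a summed level of 3 fibroblast markers of 103 CPM against 23.9 to 31.5 CPM. The markers of the labelled tissue were present in all 48 libraries, with Prox1, the granule cell transcription factor, at 247 CPM on average. Markers of CA1 pyramidal cells were also read in every library. Library totals ran from 17762656 to 25712975 counts.

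To ask how kainate changed the pathway on the injected side, kainate and saline mice were compared in the EZ at each day. A gene is called here when its Benjamini-Hochberg adjusted p in edgeR is under 0.01 and its fold change above 1.5. At day 3, the 3 subunit genes fell to 40% to 51.1% of their saline level, Nfatc1 and Nfatc4 rose, and the other 4 genes were not called. At day 7 the same subunits were called lower and all 4 NFAT genes were called higher. At day 14, none of the 9 was called. The 2 genes called higher at day 3 compare with 16.1% of all genes tested and the 3 called lower with 8.61%, and at day 7 the 4 higher and 3 lower compare with 20.6% and 11.9%. The median size of the change over the 9 genes was 0.97 on the log2 scale at day 3 and 1.15 at day 7, beside 0.39 and 0.48 over all genes tested.

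**Figure D1:**
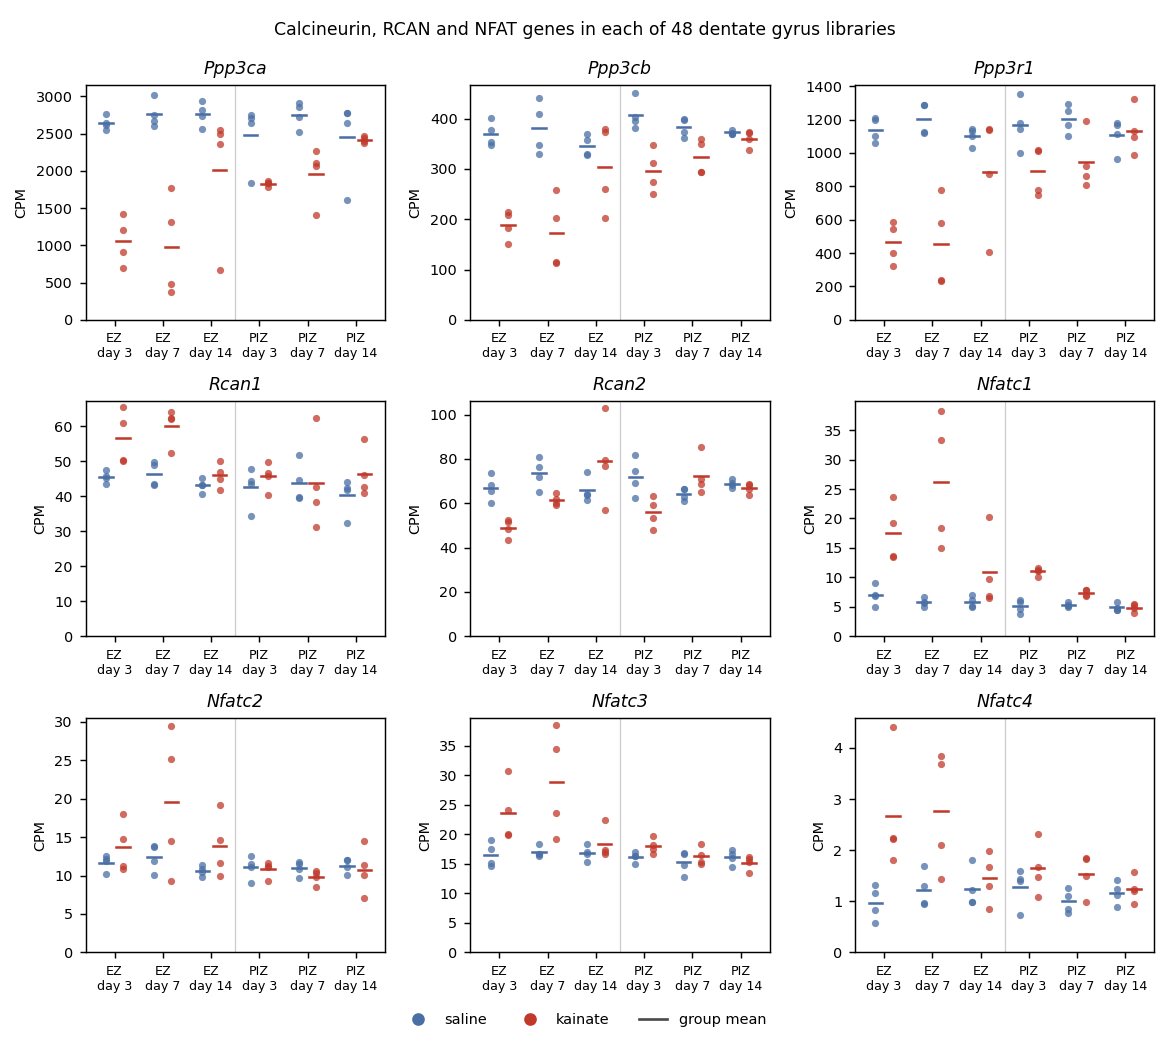
Level of each gene in CPM (y axis, from 0) in each of the 48 libraries, by side and day, with saline mice in blue, kainate mice in red and a line at each group mean (n = 4). In the EZ at day 3 and day 7 the red points of Ppp3ca, Ppp3cb and Ppp3r1 lie below every blue point of the same group and those of Nfatc1 above every blue point.

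In the EZ at days 3 and 7, the catalytic subunits were lower in every kainate mouse than in every saline mouse. Ppp3ca, the main catalytic gene here by read count, was at 695, 904, 1200 and 1425 CPM in the EZ of the 4 kainate mice at day 3, against 2547 to 2758 CPM in the saline mice. At day 7 it was at 375, 483, 1309 and 1765 CPM, against 2596 to 3020 CPM. The groups did not overlap on either day, and at day 7 mice 35 and 21 lay far below mice 26 and 23. The fitted log2 fold change was −1.32 (SE 0.31, adjusted p = 5.54e-04) at day 3 and −1.49 (SE 0.31, adjusted p = 9.78e-05) at day 7, or 35.6% of the saline level at day 7.

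Ppp3cb, the second catalytic gene, was at 151, 183, 209 and 214 CPM at day 3 against 347 to 402 CPM, and at 112, 114, 202 and 259 CPM at day 7 against 330 to 440 CPM. Again no kainate mouse reached the saline range. Its log2 fold change was −0.97 (SE 0.17, adjusted p = 2.50e-05) at day 3 and −1.15 (SE 0.17, adjusted p = 9.43e-07) at day 7. Ppp3r1, the calcium-binding regulatory subunit, was at 325, 402, 543 and 585 CPM at day 3 against 1057 to 1208 CPM. At day 7 it was at 233, 237, 581 and 777 CPM against 1120 to 1287 CPM. The same mice, 21 and 35, were lowest for all 3 subunits at day 7, and mouse 38 was lowest for all 3 at day 3. The log2 fold change of Ppp3r1 was −1.30 (SE 0.25, adjusted p = 7.53e-05) at day 3 and −1.40 (SE 0.25, adjusted p = 1.66e-05) at day 7. When the spread was estimated from the 8 libraries of the EZ at day 7 alone, the day 7 changes of the subunits were of the same size (−1.49 for Ppp3ca, −1.16 for Ppp3cb and −1.40 for Ppp3r1) and were not called (adjusted p = 0.0319, 0.0121 and 0.0209).

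The ratio of the catalytic genes within a library does not depend on the scaling between libraries. In the EZ, Ppp3ca stood above Ppp3cb by 2.29 ± 0.25 (log2 of the RPKM ratio, mean ± SD, n = 4) in kainate mice at day 3 and by 2.68 ± 0.08 in saline mice. At day 7 the values were 2.17 ± 0.50 and 2.71 ± 0.12. The difference was −0.40 at day 3 and −0.54 at day 7 (2-sided exact permutation test, p = 0.0571 on each day, adjusted p = 0.147 over 18 tests). With 4 mice against 4, the smallest p this test can give is 0.0286, so that no such ratio could pass the threshold of 0.01.

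Rcan1 and Rcan2 differed from saline in opposite directions, each by less than the fold threshold. Rcan1, a feedback regulator of calcineurin, was at 50.2, 50.5, 60.9 and 65.5 CPM in EZ kainate mice at day 3 against 43.6 to 47.5 CPM, and at 52.5, 62.1, 62.3 and 64.2 CPM at day 7 against 43.2 to 49.9 CPM. Every kainate mouse lay above every saline mouse on both days, although Rcan1 did not pass the test, at a fitted log2 change of 0.32 (SE 0.13, adjusted p = 0.0440) at day 3 and 0.38 (SE 0.13, adjusted p = 0.0142) at day 7. Rcan2, its paralogue, was at 43.2, 48.2, 51.3 and 52.2 CPM at day 3 against 60.2 to 73.8 CPM, and at 59.3 to 64.7 CPM at day 7 against 65.1 to 80.7 CPM. Here every kainate mouse lay below every saline mouse. Its log2 fold change was −0.46 (SE 0.11, adjusted p = 6.43e-04) at day 3, under the fold threshold, and −0.26 (SE 0.11, adjusted p = 0.0393) at day 7.

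As a ratio within each library, Rcan1 stood higher against Rcan2 in kainate mice of the EZ at both early days. The log2 RPKM ratio was 0.68 ± 0.17 in kainate and −0.08 ± 0.11 in saline mice at day 3 (difference 0.76), and 0.43 ± 0.14 and −0.19 ± 0.07 at day 7 (difference 0.63). In the PIZ at day 3 it was 0.18 ± 0.21 and −0.29 ± 0.08 (difference 0.47). In these 3 comparisons no kainate mouse overlapped the saline mice, and each gave the smallest exact permutation p of 0.0286 (n = 4 against 4), or 0.129 after adjustment over 18 tests. At day 14 and in the PIZ at day 7 the groups overlapped, with differences of −0.14 in the EZ at day 14, −0.21 in the PIZ at day 7 and 0.25 in the PIZ at day 14 (exact permutation p = 0.429, 0.343 and 0.114).

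**Figure D2:**
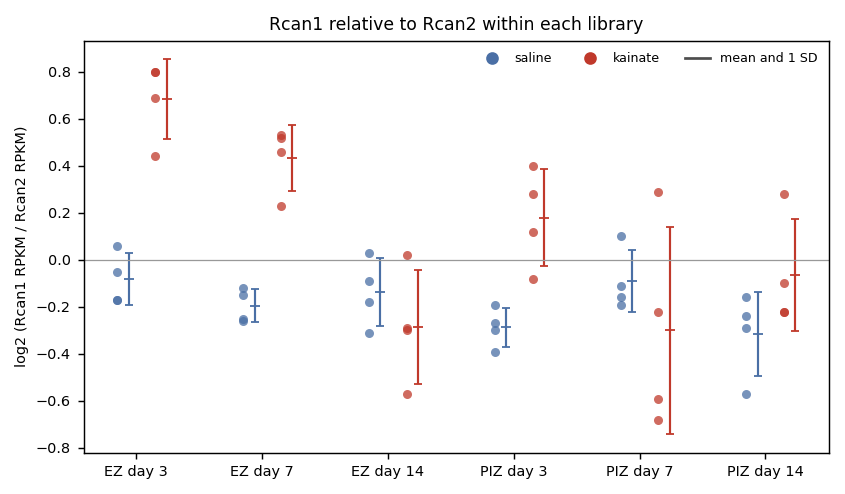
Log2 ratio of Rcan1 to Rcan2, both in RPKM (y axis), in each library by side and day, with saline mice in blue, kainate mice in red, and bars for the mean and 1 SD (n = 4). The kainate points lie above the saline points without overlap in the EZ at days 3 and 7 and in the PIZ at day 3, where the group means differ by 0.76, 0.63 and 0.47.

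Among the NFAT genes, Nfatc1 (chr18:80649266-80756295, minus strand) rose the most at day 7. It was at 13.4, 13.7, 19.3 and 23.6 CPM in EZ kainate mice at day 3 against 5.03 to 9 CPM, and at 15.0, 18.3, 33.4 and 38.2 CPM at day 7 against 4.95 to 6.64 CPM. No groups overlapped, and mice 21 and 35, which had the least calcineurin mRNA at day 7, had the most Nfatc1. The log2 fold change was 1.34 (SE 0.25, adjusted p = 5.26e-05) at day 3 and 2.18 (SE 0.26, adjusted p = 3.50e-08) at day 7, or 4.54-fold. Nfatc3 was at 19.9, 20, 24.2 and 30.7 CPM at day 3 against 14.6 to 19.0 CPM, and at 19.2, 23.6, 34.4 and 38.5 CPM at day 7 against 16.3 to 18.3 CPM. These groups were also separate. Its log2 change of 0.52 (SE 0.14, adjusted p = 0.00287) at day 3 was under the fold threshold, and passed it at 0.59 without kainate mouse 30, kainate mouse 44 or saline mouse 29. At day 7 it was called at 0.77 (SE 0.14, adjusted p = 2.11e-05).

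Nfatc4 and Nfatc2 gave less even results. Nfatc4 was at 1.80, 2.21, 2.23 and 4.40 CPM in EZ kainate mice at day 3 against 0.574 to 1.32 CPM, and at 1.43, 2.11, 3.69 and 3.84 CPM at day 7 against 0.942 to 1.70 CPM. The day 3 groups were separate and the day 7 groups overlapped through mouse 23. Its log2 fold change was 1.45 (SE 0.32, adjusted p = 3.13e-04) at day 3 and 1.17 (SE 0.31, adjusted p = 0.00170) at day 7, and the day 7 call was lost without mouse 21 (0.98, adjusted p = 0.0150) or mouse 35 (1.01, adjusted p = 0.0122). Nfatc2 was at 10.8 to 18 CPM at day 3 against 10.2 to 12.5 CPM and was not called (log2 fold change 0.23, SE 0.22, adjusted p = 0.403). At day 7 Nfatc2 was at 9.23, 14.5, 25.2 and 29.4 CPM against 10.1 to 13.8 CPM, so that mouse 23 lay below the saline range and the other 3 above it. Its day 7 call (0.66, SE 0.22, adjusted p = 0.00904) was lost in limma-voom with or without the mouse as a random block (0.56, adjusted p = 0.0276), with no filter on low counts (0.63, adjusted p = 0.0184), and without saline mouse 89, 33, 20 or 34 or kainate mouse 21 or 35 (0.40 to 0.72). In the fit to the 8 libraries of the EZ at day 7 alone, Nfatc1 was the 1 gene of 9 still called there, with 3847 called over all genes in place of 4413 higher and 2547 lower, while Nfatc3 was at 0.76 (adjusted p = 0.0185) and Nfatc4 at 1.17 (adjusted p = 0.027).

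**Figure D3:**
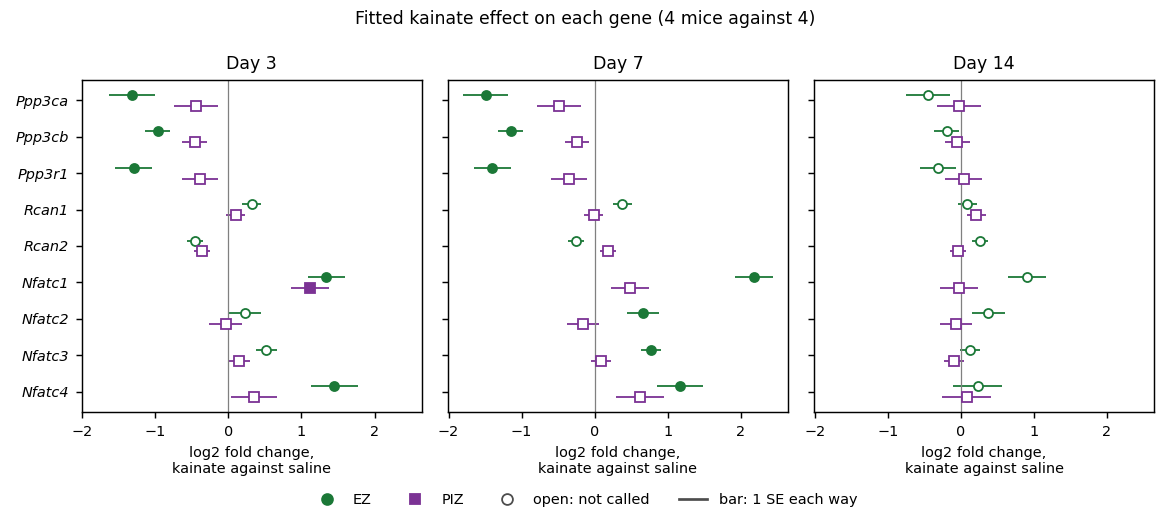
Fitted log2 fold change of kainate against saline (x axis) for each gene at days 3, 7 and 14, with the EZ as green circles and the PIZ as purple squares. Filled symbols are called genes, open symbols are not called, and bars show 1 standard error each way. Called genes lie in the EZ at days 3 and 7, and in the PIZ only Nfatc1 at day 3 is filled.

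At day 14 in the EZ, 0 of 9 genes were called, against 2.36% of all genes tested. edgeR gave 2 of 9 at an unadjusted p under 0.05, Nfatc1 and Rcan2, and DESeq2 called 0. Rcan2 was at 57.1 to 103 CPM in kainate mice against 61.6 to 74.1 CPM, with a log2 change of 0.26 (SE 0.11, adjusted p = 0.168). Without mouse 27 that change was 0.11 (SE 0.1). Nfatc1 was at 6.55, 6.86, 9.77 and 20.3 CPM in kainate mice against 4.89 to 7.04 CPM, which gives a log2 change of 0.91 (SE 0.26, adjusted p = 0.0273). The highest value belonged to mouse 27, and the fold change was 0.42 (SE 0.23, adjusted p = 1) without it, while leaving out mouse 36 or 14 gave 1.08 and 1.09 and a call. Ppp3ca was at 2357, 2490 and 2547 CPM in 3 kainate mice and at 670 CPM in mouse 27, all below the saline range of 2559 to 2938 CPM. Its log2 fold change was −0.45 (SE 0.30, adjusted p = 0.447), and −0.17 (SE 0.28) without mouse 27. Ppp3r1 was at 872 to 1141 CPM in the same 3 mice and at 404 CPM in mouse 27, against 1032 to 1146 CPM. For the other members without mouse 27, the log2 fold changes lay between −0.07 and 0.18. In the fit with all mice, 7 of 9 microglia markers (median 1.77), 3 of 7 astrocyte markers and 1 of 4 leukocyte markers tested were called higher. Of 8 pan-neuron markers 0 were called. The summed microglia level was 604 to 4236 CPM in kainate mice against 482 to 513 CPM in saline mice. The part of these changes in those of the members was not tested.

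Cell type markers also differed between kainate and saline mice in the same libraries. The summed pan-neuron level in the EZ was 2254 to 3920 CPM in kainate mice at day 3 (median 3422) and 1593 to 3935 CPM at day 7 (median 2647), against 5103 to 6204 CPM and 5193 to 6545 CPM in saline mice. Of the 8 pan-neuron markers, 4 were called lower at day 3 and 6 at day 7, and 0 were called higher. Among all genes tested, 8.61% and 11.9% were called lower. Snap25, the abundant synaptic vesicle fusion gene, had log2 fold changes of −1.28 and −1.53, and Map2, the dendritic microtubule gene, of −0.38 (adjusted p = 0.0819) and −0.61. The summed microglia level was 1905 to 3391 CPM at day 3 and 2263 to 8765 CPM at day 7, against 630 to 1119 CPM and 538 to 602 CPM. Of the 9 microglia markers, 8 were called higher at day 3 and 9 at day 7, beside 16.1% and 20.6% of all genes. Csf1r, the colony-stimulating factor receptor, rose by 0.95 and 2.66 on the log2 scale. In bulk tissue, fewer cells of a type and less RNA per cell cannot be told apart, and the part of cell composition in the members' changes was not tested.

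Within the EZ, the kainate mice stood in the same order for the subunits and the neuron markers at day 3 and at day 7. Against the saline mean, the mean log2 CPM of the 3 subunits lay between −0.89 and −1.68 in the EZ at day 3, where the mean of the pan-neuron markers lay between −0.42 and −1.28. At day 7 mice 21 and 35 were at −2.20 and −2.33 for the subunits and −1.76 and −1.78 for the neuron markers, while mice 23 and 26 were at −0.61 and −1.01 and at −0.61 and −0.72. Mouse 27 at day 14 was at −1.42 and −0.90. In the PIZ at day 3 the 2 orders differed only for mice 42 and 44. These were at −0.55 and −0.57 for the subunits and −0.25 and −0.18 for the neuron markers. In the PIZ at day 7 the order was not shared. There mouse 21 had the lowest subunit mean (−0.54) and the highest neuron marker mean (0.17) of its group, and mouse 35 was at −0.42 and −0.24. As a value within each library, the subunits exceeded the neuron markers by 0.64 ± 0.04 (mean log2 CPM difference) in kainate and 1.10 ± 0.12 in saline mice of the EZ at day 3, without overlap (difference −0.45; 2-sided exact permutation test, n = 4 against 4, p = 0.0286, adjusted p = 0.129). In the EZ the difference was −0.32 at day 7 and −0.20 at day 14, and it was −0.26, −0.33 and −0.05 in the PIZ at days 3, 7 and 14 (adjusted p from 0.147 to 0.908 by the exact permutation test).

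**Figure D4:**
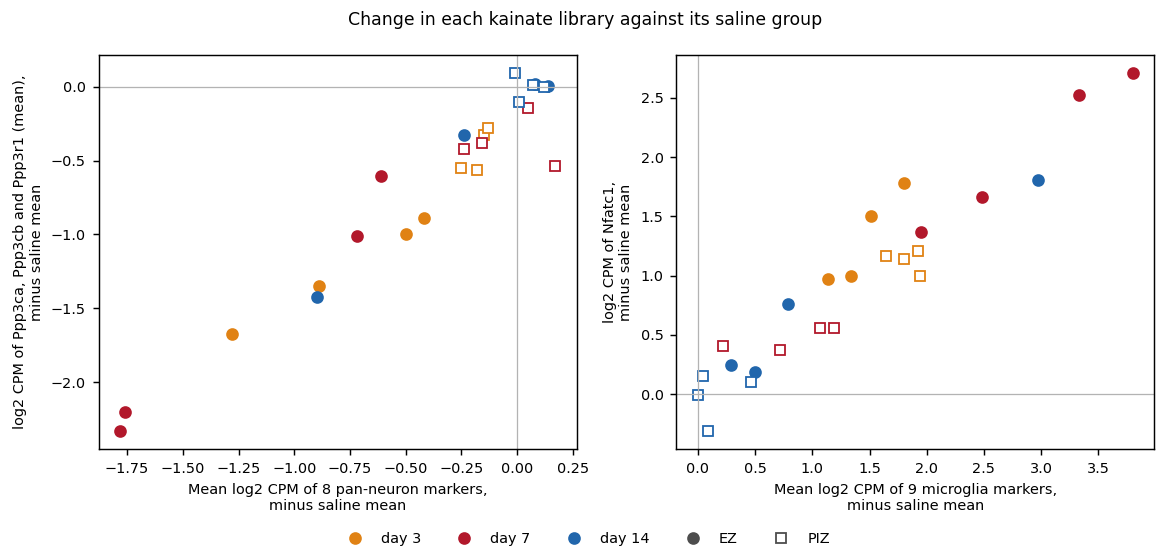
Each point is 1 kainate library, as its log2 CPM minus the mean of its saline group, with filled circles for the EZ, open squares for the PIZ and colours for the day. Left, the mean of Ppp3ca, Ppp3cb and Ppp3r1 (y axis) against the mean of 8 pan-neuron markers (x axis); right, Nfatc1 (y axis) against the mean of 9 microglia markers (x axis). Mice 21 and 35 at day 7 lie at the far ends of both panels, at −2.20 and −2.33 on the left and 2.71 and 2.52 on the right.

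The other marker lists stand beside the shares of all genes called in the EZ, 16.1% higher and 8.61% lower at day 3. At day 7 these shares were 20.6% higher and 11.9% lower. In the EZ, 4 astrocyte markers of 7 were called higher and 1 lower at day 3, and 6 were called higher at day 7, with Gfap at 1.28 and 3.31 and Slc1a3 at 0.27 (not called) and 0.78. Of 6 interneuron markers, 4 were called lower at day 3 and 3 at day 7, while the most abundant, Gad1 and Gad2, were not called (−0.43 and −0.24 at day 3). Of 5 granule cell markers, 2 were called lower at day 3, and 1 was called higher and 1 lower at day 7, and Prox1 (−0.12 and −0.30) and C1ql2 (−0.91 on both days) were not called. The summed granule cell level at day 7 was 170 and 353 CPM in mice 21 and 35, below the saline range of 510 to 843 CPM, and 750 and 778 CPM in mice 23 and 26, within it. Of 3 CA1 pyramidal markers, 2 and 3 were called lower, with Mpped1 at −2.63 and −2.04 and Fibcd1 at −1.82 and −1.98. Of 3 CA3 markers 1 was called lower on both days, namely Iyd at −3.56 and −3.77, and Bok was at −0.39 and −0.38. Of 6 oligodendrocyte markers, 1 and 3 were called higher (Mbp −0.16 and 0.67, not called), of 5 endothelial markers 3 on both days (Flt1 −0.16 and 0.02, not called, and Cldn5 1.34 and 0.89), and of 3 fibroblast markers 3 on both days (Dcn 2.31 and 2.23, Col1a1 2.23 and 3.18). Of the 10 T cell and leukocyte markers 4 could be tested, of which 2 and 3 were called higher (Ptprc 2.01 and 3.33, Ccr2 3.82 and 2.75), and the T cell and B cell genes Cd3d, Cd3e, Cd3g, Cd8a and Ms4a1 were too low to test. These values are log2 fold changes at day 3 and day 7, and their part in the members' changes was not tested.

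On the opposite side, 1 of the 9 genes was called. In the PIZ at day 3, Nfatc1 was at 10, 11.1, 11.3 and 11.6 CPM in kainate mice against 3.78 to 6.17 CPM in saline mice, giving a log2 change of 1.12 (SE 0.26, adjusted p = 0.00157) and no overlap. Among all genes tested, 8.69% were called there. The call was lost without saline mouse 41 (log2 change 1, adjusted p = 0.0131). The summed microglia level in the same libraries was 1289 to 1582 CPM in kainate and 358 to 495 CPM in saline mice, with 9 of 9 markers called higher, while 0 of 8 pan-neuron markers were called. The summed astrocyte level was 6758 to 7407 CPM against 1911 to 2256 CPM, with 4 of 7 markers called higher. In addition 1 leukocyte marker was called higher, and 1 granule cell and 1 CA1 marker lower. The part of these changes in that of Nfatc1 was not tested.

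None of the subunits was called in the PIZ at day 3. Ppp3cb was at 250, 274, 312 and 348 CPM in kainate mice against 382 to 450 CPM, without overlap, and its log2 change of −0.46 (SE 0.17, adjusted p = 0.0472) did not pass. Ppp3ca lay within 1776 to 1862 CPM in kainate mice. The saline mice were at 2643 to 2744 CPM except mouse 18, at 1833 CPM, and the log2 fold change was −0.44 (SE 0.30, adjusted p = 0.302), or −0.56 without mouse 18, not called either way. Ppp3r1 (−0.39, adjusted p = 0.259), Rcan1 (0.10, adjusted p = 0.614), Rcan2 (−0.36, adjusted p = 0.0123), Nfatc2 (−0.04, adjusted p = 0.924), Nfatc3 (0.15, adjusted p = 0.461) and Nfatc4 (0.35, adjusted p = 0.456) were not called.

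At day 7 in the PIZ, 0 of 9 genes were called in edgeR and 0 in DESeq2, with 0 at an unadjusted p under 0.05, against 0.201% of all genes. Even so, Ppp3ca at 1408, 2068, 2107 and 2266 CPM lay below the saline range of 2522 to 2908 CPM in every kainate mouse, and the log2 change was −0.49 (SE 0.30, adjusted p = 0.467). The lowest value belonged to mouse 21, and without it the log2 change was −0.36, not called either. Ppp3cb at 293, 294, 349 and 360 CPM also lay below its saline range of 362 to 400 CPM, and Nfatc1 at 6.83 to 7.81 CPM above its range of 4.95 to 5.75 CPM (log2 fold changes −0.24 and 0.48). In these libraries the granule cell sum was 286 to 567 CPM against 679 to 813 CPM. The microglia sum was 511 to 1022 CPM against 390 to 487 CPM, and the astrocyte sum 2245 to 3265 CPM against 1819 to 2133 CPM. The pan-neuron sums overlapped. Of these lists 0 markers were called, and their part was not tested. At day 14, 0 of 9 were called in edgeR and 0 in DESeq2, with 0 at an unadjusted p under 0.05, against 0.014% of all genes. The log2 fold changes then lay between −0.09 and 0.21. For Ppp3ca, saline mouse 39 was at 1609 CPM and the other saline mice at 2648 to 2778 CPM, and the log2 fold change was −0.02 with that mouse and −0.18 without it.

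Whether the kainate effect itself differed between the sides was tested directly. At day 7, 2 of 9 genes were called, against 9.89% of all genes. The effect on Nfatc1 was larger in the EZ by 1.70 on the log2 scale (SE 0.36, adjusted p = 0.00226), and the effect on Ppp3cb was lower in the EZ, with a difference of −0.91 (SE 0.24, adjusted p = 0.00695). In the same comparison 9 of 9 microglia markers (median difference 2.44) and 4 of 7 astrocyte markers were called higher in the EZ, and 5 of 8 pan-neuron markers (median −1.02) and 2 of 6 interneuron markers lower. Also called higher were 1 of 5 granule cell markers (Pdyn, 2.74) and 1 of 4 leukocyte markers tested (Ccr2, 2.68). The part of these markers in the differences of the members was not tested. Both calls were lost without saline mouse 89 or 20 or kainate mouse 21 or 35, where the difference lay between 1.44 and 1.72 for Nfatc1 and between −0.89 and −0.70 for Ppp3cb, and where the calls over all genes fell to between 1 and 221. The Ppp3cb call was also lost without saline mouse 33 or 34 (−0.96 and −0.93) and when only the groups compared were fitted (−0.90, adjusted p = 0.0448). The differences for Ppp3ca (−1, adjusted p = 0.0756), Ppp3r1 (−1.05, adjusted p = 0.0259) and Nfatc3 (0.67, adjusted p = 0.0132) did not pass. With the mouse as a random block, that of Ppp3r1 passed (−1.23, adjusted p = 0.00818), but not with the mouse as a fixed block (−1.23, adjusted p = 0.0105), and in DESeq2 that of Nfatc3 passed (0.66, adjusted p = 0.00820). Without kainate mouse 23, 6 genes passed, with Nfatc2, Nfatc3, Ppp3r1 and Rcan1 added, and without kainate mouse 26, 3 genes passed, with Nfatc3 added (0.82, adjusted p = 0.00427). Over all genes, 3752 and 3119 were called in these fits, against 2115 with all mice.

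At day 3, 0 of 9 genes differed in their kainate effect between the sides, against 0.0655% of all genes, with 4 at an unadjusted p under 0.05 and 0 called by DESeq2. The differences were 1.10 for Nfatc4 (SE 0.45, adjusted p = 0.198), which ran from 0.59 to 1.47 when 1 mouse was left out, and −0.90 for Ppp3r1 (SE 0.35, adjusted p = 0.177), and that for Nfatc1 was 0.22 (SE 0.36). At day 14 the count was again 0 of 9, with 0% of all genes called, 1 member at an unadjusted p under 0.05 and 0 called by DESeq2. Nfatc1 had the largest difference there, 0.93 (SE 0.37, adjusted p = 0.584), which was 0.47 (SE 0.33) without mouse 27.

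Between days, 0 of 9 genes changed their EZ kainate effect from day 3 to day 7 (0.145% of all genes called, 1 member at an unadjusted p under 0.05, 0 called by DESeq2). Nfatc1 had the largest difference, 0.85 (SE 0.36, adjusted p = 0.313), and those of the 3 subunits were between −0.19 and −0.10. From day 7 to day 14 in the EZ, 0 of 9 passed in edgeR, against 0.271% of all genes. The differences were −1.27 for Nfatc1 (SE 0.36, adjusted p = 0.0222), 0.96 for Ppp3cb (SE 0.24, adjusted p = 0.0160), 1.03 for Ppp3ca (SE 0.43, adjusted p = 0.0873) and 1.09 for Ppp3r1 (SE 0.35, adjusted p = 0.0364), with 7 of 9 members at an unadjusted p under 0.05. Nfatc3 was at −0.64 (SE 0.2, adjusted p = 0.0326). Rcan2 was at 0.52 (SE 0.15, adjusted p = 0.0246), and in DESeq2 at 0.53 (adjusted p = 0.00965), under the fold threshold. DESeq2 called 2, Nfatc1 (−1.26, adjusted p = 0.00962) and Ppp3cb (0.98, adjusted p = 0.00392), beside 898 of all genes, where edgeR called 58. Without mouse 27 at day 14 or without mouse 23 at day 7, the same 5 genes passed in edgeR, namely Nfatc1, Nfatc3, Ppp3ca, Ppp3cb and Ppp3r1, and without mouse 26 Nfatc1 and Ppp3cb passed. The calls over all genes rose in these fits as well, to 4087 without mouse 27, 2333 without mouse 23 and 990 without mouse 26. In the PIZ from day 3 to day 7, 0 of 9 passed (0.0234% of all genes called, 1 member at an unadjusted p under 0.05, 0 called by DESeq2). That member was Rcan2, at 0.54 (SE 0.15, adjusted p = 0.146).

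The rest of the pathway was read from 5 lists of related genes. Their counts stand beside the shares of all genes called in the EZ, 16.1% higher and 8.61% lower at day 3 and 20.6% higher and 11.9% lower at day 7, and nothing particular to a list was tested. Of 11 further complex members and regulators 10 could be tested, and in the EZ 3 were called lower at day 3 and 5 at day 7, with 0 higher. Among those called were Akap5, the anchoring protein that holds calcineurin at the postsynapse (−1.30 and −1.53), the calmodulin genes Calm3 (−0.91 and −0.94) and, at day 7 only, Calm2 (−0.36, not called at day 3, and −0.74), and Fkbp1a, which binds the inhibitor FK506 (−0.55, under the fold threshold at day 3, and −0.62). Ppp3cc, the remaining catalytic gene, was not called (0.10, adjusted p = 0.305, and −0.11, adjusted p = 0.219), nor were Rcan3, Cabin1, Chp1 and Ppia, which lay between −0.18 and 0.28. The list's median was −0.23 and −0.40, beside 0.03 and 0.01 over all genes tested. These values and those of the next lists are log2 fold changes at day 3 and then day 7.

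Genes of calcium entry and release went both ways. Of 10 tested, 3 were called higher on both days, and 3 and 5 lower (list medians −0.43 and −0.45). Higher were Orai1, the store-operated channel (1.15 and 1.84), and the inositol trisphosphate receptor genes Itpr2 (0.68 and 1.61) and Itpr3 (0.97 and 1.16). Itpr1, the receptor type abundant in neurons, was lower (−1.83 and −1.91), as were Stim2, a sensor of store calcium (−1.18 and −1.13), and, at day 7, the voltage-gated channel gene Cacna1c (−0.54, not called at day 3, and −1.10). Of 14 NFAT kinases, partners and relatives, 2 were called higher and 4 lower on each day (list medians −0.32 and −0.41). The AP-1 genes Fos (3.45 and 4.39) and Junb (1.97 and 1.58) were higher, and Homer2, a scaffold that binds NFAT (−1.86 and −1.95), and the transcription factor Mef2a (−0.76 and −0.72) were lower on both days. The NFAT kinase gene Gsk3a was called lower at day 7 (−0.65).

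Of 11 listed NFAT target genes, 6 had enough reads to test, while Ifng, Csf2, Il4, Fasl and Cd40lg had not. In the EZ 5 of the 6 were called higher at day 3 and 3 at day 7, with 0 lower, and list medians of 1.87 and 1.53. These were Egr2 (3.34 and 3.74), Nr4a1 (1.94 and 2.00), Ptgs2 (1.80, and 1.06, not called), Egr3 (0.84, and −0.12, not called) and Tnf, for which saline libraries held too few reads for a fold to be given. Egr2, Egr3, Nr4a1 and Ptgs2 are also immediate early genes of neuronal activity, and Tnf a cytokine made by microglia. Il2, the classical target in T cells, was not called (−0.44, adjusted p = 0.157, and −0.06, adjusted p = 0.885). Of 6 calcineurin substrates, 1 was called higher on both days, and 3 and 2 lower (list medians −0.56 and −0.70). The transcription factor Tfeb was higher (0.97 and 1.70), and Dnm1, the endocytic GTPase (−1.15 and −1.45), the coactivator Crtc1 (−0.88 and −1.07) and, at day 3, the phosphatase inhibitor Ppp1r1b (−1.69, and −1.02, not called at day 7) were lower. Crtc2 (0.16 and 0.01) was not called.

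At day 14 in the EZ, and at days 7 and 14 in the PIZ, 0 genes of the 5 lists were called, where the shares over all genes were 2.36%, 0.201% and 0.014%. In the PIZ at day 3 the 4 called genes were Orai1, Itpr2, Itpr1 and Tfeb, beside 8.69% of all genes. Between the sides at day 7, the kainate effect was called different for Akap5 (−1.27), Orai1 (1.2), Itpr2 (1.41), Fos (3.48) and Dnm1 (−1.31), as log2 differences of EZ minus PIZ, beside 9.89% of all genes. These calls depend on single mice, since the calls over all genes fell from 2115 to 1 without kainate mouse 21. Without saline mouse 89 they fell to 221.

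Finally, the 2 genes most like each member were found by Pearson's r of log2 CPM over the 48 libraries. The libraries share mice in pairs and fall into the treatment groups above, so these values describe the table and carry no p. Nfatc1 was most like Fcer1g, the signalling chain of Fc receptors in myeloid cells, and the integrin gene Itgb5 (r = 0.978 for both). The neighbours of the subunits were Chn1 (0.982) and Add2 (0.977) for Ppp3ca, Wdr47 (0.984) and Trim37 (0.982) for Ppp3cb, and Dnaaf10 (0.993) and Nptn (0.985) for Ppp3r1, of which Dnaaf10 is the gene that shares exonic bases with it. Nfatc3 was most like Npc1, the lysosomal cholesterol transporter, and Ctnnd1, a catenin (0.939 for both). For Nfatc4 they were Slc12a7 (0.880) and Mmp11 (0.867), and for Nfatc2 Ephx1 (0.863) and Cerk (0.860). For the RCAN genes they were Lman2 (0.862) and Cotl1 (0.854) for Rcan1, and Htr2a (0.812) and Olfm3 (0.787) for Rcan2.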

How the data were processed

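The authors microdissected the dorsal dentate gyri, made stranded poly-A libraries, trimmed reads with fastp 0.20.1, aligned them to GRCm39 with HISAT2 2.2.1 and counted them per Gencode gene with featureCounts of Subread 1.6.4, placing reads with several hits at their primary alignment. The deposited values are these raw read counts per gene and library (17762656 to 25712975 per library, median 22108562.5). Symbols came from a later Gencode release and matched 98.9% of genes. From the counts, edgeR 4.0.16 (R 4.3.3) kept 21390 genes (filterByExpr over 12 groups, 99.9% of counts), scaled by TMM, fitted 1 mean per group over all 48 libraries and ran quasi-likelihood tests with Benjamini-Hochberg adjustment over all genes tested. Called means adjusted p under 0.01 and a fold change above 1.5, the study's thresholds. The standard error is the log2 fold change over the square root of F, log2 CPM and the ratios within a library used a prior count of 2, and RPKM used no prior count and the union of exons. The scripts were tested on simulated counts.

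The libraries of a mouse share its number in the labels, so EZ and PIZ are paired by animal. The correlation of their deviations from the group means ran from -0.0536 to 0.376 over the 24 mice. No 2 libraries were identical. Sex was not modelled. Alternatives were DESeq2 1.42.0, limma-voom (limma 3.58.1), RLE size factors, no filter on low counts, only the groups compared, no fold threshold, the mouse as a block, another prior count, and each mouse left out. Exact permutation tests over mice compared 3 ratios in 6 comparisons. The precision of each value is limited by counting and by 4 mice per group.

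The members and lists were chosen with earlier results of these data known. The genes named were all 9 members, the 2 genes most correlated with each, of each related list the 2 called genes of smallest p in each direction in the EZ at day 3 or day 7 and every called gene of lists with 5 or fewer called, and the 2 most abundant of each marker list. Cacna1d, Orai2, Dyrk2, Homer3 and Gsk3b were called in the EZ on at least 1 of those days and are counted without values. A few genes that this rule would name are not reported here.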

Additional observations from a re-analysis of the deposited data

Results flagged for a closer look

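In groups of 4 mice, 1 library stood apart from the other 3 by Dixon's criterion in 5 of the 108 groups of gene, side, treatment and day, and chance alone marks about 1 in 20. In the EZ of kainate mice at day 14, mouse 27 had 670 CPM of Ppp3ca, against 2357 to 2547 CPM in the other 3, and 22.5 CPM of Nfatc3, against 16.7 to 17.4 CPM. The same library had the highest microglia and lowest pan-neuron marker sums of its group. In the PIZ of saline mice, Ppp3ca stood at 1833 CPM in mouse 18 at day 3, against 2643 to 2744 CPM, and at 1609 CPM in mouse 39 at day 14, against 2648 to 2778 CPM. Both had the lowest granule cell and the highest pan-neuron marker sums of their groups. Rcan1 stood at 52.5 CPM in the EZ of kainate mouse 26 at day 7, against 62.1 to 64.2 CPM.

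The kainate effect differed between the sides at day 7 for Nfatc1, by 1.70 on the log2 scale, and for Ppp3cb, by -0.91, as EZ minus PIZ in edgeR.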

How the results depend on the processing

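Of 756 values of single members in the 6 comparisons of kainate with saline under an alternative, 714 kept their direction and their side of the threshold. With only the groups compared in the fit, the members called fell to 1 in the EZ at day 7 and to 1 for the difference between sides at day 7, where 3847 and 1159 of all genes were called. DESeq2 called 2 members for day 14 against day 7 in the EZ, and 898 of all genes. Leaving out 1 mouse gave 5 to 7 members called in the EZ at day 7 (5450 to 7947 of all genes), 0 to 1 in the EZ at day 14 (7 to 893 of all genes), 0 to 1 in the PIZ at day 3 (1289 to 1725 of all genes), 0 to 6 for the difference between sides at day 7 (1 to 3752 of all genes) and 0 to 5 for day 14 against day 7 in the EZ (1 to 4087 of all genes). The cause was not tested.

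In the comparisons of kainate with saline, directions turned only for members that were not called. Leaving out 1 mouse moved Nfatc2 from -0.12 to 0.03 in the PIZ at day 3, Rcan1 from -0.23 to 0.12 in the PIZ at day 7 (0.02 with no filter on low counts), and in the PIZ at day 14 Ppp3ca from -0.18 to 0.05, Nfatc2 from -0.25 to 0.09, Nfatc4 from -0.05 to 0.19, Ppp3r1 from -0.04 to 0.10 and Nfatc1 from -0.07 to 0.08. With limma-voom, with and without the replicate block by mouse, Ppp3ca in the PIZ at day 14 was 0.02. Against limma-voom or edgeR without it, the block changed only the call given beside Ppp3r1 between the sides at day 7, and that only as a random block. Among the differences in kainate change between sides or days that were not called, leaving out 1 mouse turned the direction of Ppp3cb between the sides at day 14 (-0.26 to 0.03), of Nfatc4 (-0.47 to 0.08), Ppp3ca (-0.61 to 0.11) and Ppp3r1 (-0.48 to 0.12) from day 3 to day 7 in the EZ, and of Ppp3ca (-0.12 to 0.09), Ppp3r1 (-0.08 to 0.12) and Rcan1 (-0.33 to 0.02) there in the PIZ. Nfatc4, at 13 to 115 reads per library, is the member most limited by depth.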
